A study of Mus musculus with 14 samples.

Results

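Kidneys of male C57BL/6J mice given MnDps were compared by RNA sequencing with kidneys of mice given Dps, 24 h after 18 mg/kg of either agent was given intravenously. The 5 libraries of this comparison, 2 of MnDps at 24 h and 3 of Dps at 24 h, were chosen by their labelled treatment and time from the 14 libraries of the series. Both groups shared strain, sex, dose, route and time and differed in the labelled agent. The series title speaks of protein nanocages that reach the proximal tubule by glomerular filtration, and the labels do not spell out the names Dps and MnDps further. They do not say whether each library came from its own mouse, so the p-values given rest on library-to-library spread alone, and that spread may be technical. The other libraries, 3 each of MnDps at 4 h, Dps at 4 h and vehicle control, entered the estimate of that spread, and the controls carry no time point. Of 24421 genes in the table, 14854 had enough counts to be tested.

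The kidney filters small proteins from blood, and proximal tubule cells take them back with the receptors megalin and cubilin. Interferon-stimulated genes are switched on when cells sense type I or type II interferon, and they encode antiviral enzymes, antigen-processing proteins and guanosine triphosphatases. Proximal tubule cells burn fatty acids as fuel, and the nuclear receptor PPAR-alpha drives genes of fatty acid oxidation and omega-hydroxylation in them.

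Total counts were 15097093 and 23591909 in the MnDps libraries, 19172882 to 21010538 in the Dps libraries and 17589774 to 37135858 in the controls. Levels are given as CPM, the library's counts scaled to a common size. The kidney marker Lrp2, which encodes megalin, stood between 1980 and 2237 CPM in the 5 libraries. Of 12 adrenal genes 11 were too low to test, with 0 to 12 counts each over the 5 libraries. The globin genes Hba-a1, Hba-a2, Hbb-bs and Hbb-bt were listed at 0 counts, so red cells could not be followed with them. In whole kidney, fewer cells of a type and less RNA per cell cannot be told apart.

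At 24 h, 121 genes differed between MnDps and Dps at an adjusted p under 0.05 in edgeR's quasi-likelihood test, which is 0.815% of the genes tested. Of these, 22 were higher after MnDps (0.148%) and 99 were lower (0.666%). Most differences were small: the median size was a log2 fold change of 0.59 among the higher genes and 0.58 among the lower ones, and only 3 higher and 7 lower genes passed 2-fold. Of the 22 higher genes, 10 were called above control after MnDps and 9 below control after Dps. The other way went 0 and 2. Of the 99 lower genes, 79 were called below control after MnDps and 18 above it after Dps. The other way again went 0 and 2. Over all genes tested, 4.93% and 8.39% were called above and below control after MnDps, and 9.64% and 10.4% after Dps. Being picked by their difference between the same libraries, the called genes are not comparable with all genes. The first principal component of the 5 libraries held 38.4% of the variance and placed both MnDps libraries at negative scores, -24.1 and -23.1, and all 3 Dps libraries at positive scores, 12.4 to 19.8. Leaving out MnDps replicate 1 left 5 genes called, all lower, and leaving out MnDps replicate 2 left 22, of which 13 were higher. Without Dps replicate 1, 2 or 3 the counts were 45, 16 and 15. All 121 kept their direction in each of these 5 fits, and 2 genes, Gt(ROSA)26Sor and C1d, were called in all of them, while 75 were called in none. Named genes called in none of them were Ddx58, Zc3hav1, Lgals3bp, Ucp2, Cubn, Slc12a3, Lamc1, Tbl1x, Nav1, Itpr3, Kcnip2, Cry2, Susd1, B4galnt1, Rgs11, Kit and Arhgef28 on the higher side. On the lower side they were Lypla1, Lipo1, Ap3s1, Tmed7, Sec24a, Srp19, Slc7a13, Chpt1, Atp5g3 and Hspe1.

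**Figure D1:**
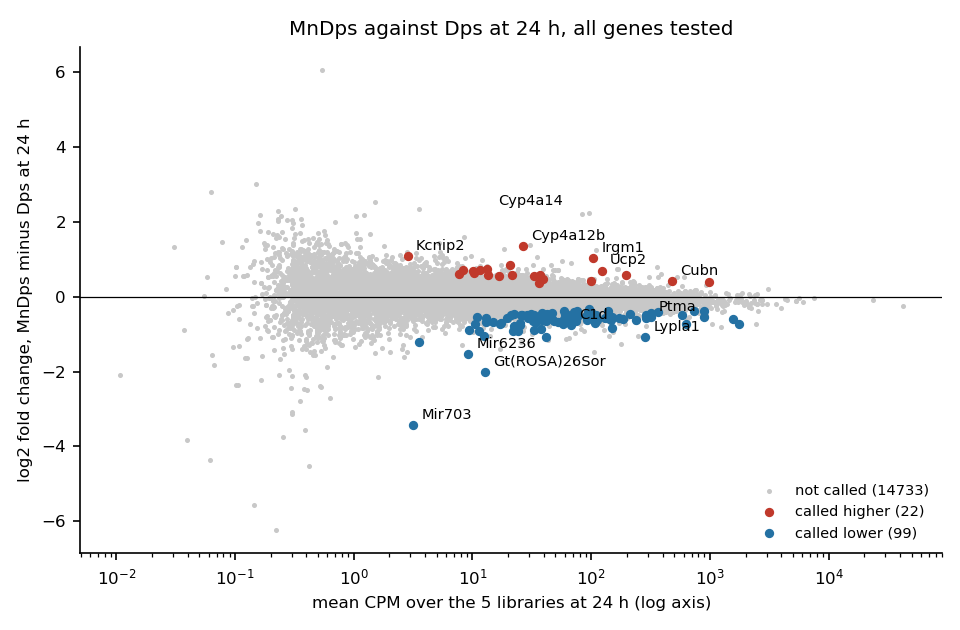
Log2 fold change of MnDps minus Dps at 24 h (vertical axis) against mean CPM over the 5 libraries (horizontal log axis), one point per tested gene. The 22 called higher genes are red, the 99 called lower genes are blue and the rest are grey; Cyp4a14, at 2.22, lies above all called genes but is grey.

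The list of interferon-stimulated genes had 52 tested members, of which 2 were called higher and none was called lower, while 50 of 52 had a positive log2 fold change. Their median log2 fold change was 0.45, beside 0.00 over all genes tested. Both MnDps libraries lay above all 3 Dps libraries for 34 of the 52 members (65.4%), where 18.6% of all genes tested did so. The median stayed between 0.34 and 0.54 when any 1 of the 5 libraries was left out.

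The called members were Irgm1 and Ddx58. Irgm1, an interferon-inducible guanosine triphosphatase of cell defence against intracellular microbes, measured 180.1 and 119 CPM after MnDps and 63.3, 87.1 and 68.9 CPM after Dps. Controls stood at 84.1, 71.1 and 55.7 CPM, so both MnDps libraries lay above all controls and the Dps libraries overlapped them. At 4 h Irgm1 measured 878 to 1037 CPM after MnDps and 804 to 1052 CPM after Dps. At 24 h the log2 fold change between the proteins was 1.03 ± 0.20 (SE, 2 against 3 libraries), with an adjusted p of 0.0395. Ddx58, which encodes the RNA sensor RIG-I, measured 51.0 and 41.2 CPM after MnDps against 26.8, 33.6 and 31.9 CPM after Dps, and 29.6 to 34.0 CPM in controls. Ddx58 differed by a log2 fold change of 0.58 ± 0.12 (SE), with an adjusted p of 0.0395, and again both MnDps libraries lay above all controls. Irgm1 stayed called in 1 of the 5 fits with a library left out, the one without MnDps replicate 2, and Ddx58 in none, with log2 fold changes of 0.70 to 1.30 and 0.41 to 0.73.

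The start regions of these genes are shown because they are the called members of the list, with the interferon-stimulated response element core (GAAA, any 2 bases, GAAA) searched on both strands. Each is the RefSeq promoter on GRCm38.p6, from 250 bases before to 50 bases after the start that RefSeq gives, and capitals mark the matches. For Irgm1 that start lies inside the GENCODE gene model, which spans chr11:48861968-48871683. Irgm1 spans chr11:48871371-48871670 and Ddx58 spans chr4:40239776-40240075, both on the minus strand.
Irgm1: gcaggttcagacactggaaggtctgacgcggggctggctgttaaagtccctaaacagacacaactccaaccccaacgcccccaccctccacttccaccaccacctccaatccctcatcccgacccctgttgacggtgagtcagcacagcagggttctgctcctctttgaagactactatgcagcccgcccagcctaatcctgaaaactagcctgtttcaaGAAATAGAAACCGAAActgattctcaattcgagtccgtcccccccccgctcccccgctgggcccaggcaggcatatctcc
Ddx58: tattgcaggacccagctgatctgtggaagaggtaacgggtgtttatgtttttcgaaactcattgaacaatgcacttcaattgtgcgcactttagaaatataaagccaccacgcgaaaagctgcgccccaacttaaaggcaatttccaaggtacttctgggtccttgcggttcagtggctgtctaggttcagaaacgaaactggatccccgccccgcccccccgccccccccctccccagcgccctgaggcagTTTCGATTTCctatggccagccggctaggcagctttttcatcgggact
Irgm1 held 2 matches that overlap each other, and Ddx58 held 1 match, read on the opposite strand. The core was found in 1131 of 32851 promoters of this length (3.44%). The called genes Zc3hav1 and Lgals3bp, shown for comparison by count alone, held 0 matches in this window.

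Other interferon members were separated by library without a call. Irf7, a transcription factor of the interferon response, measured 240.7 and 203 CPM after MnDps, 118, 175 and 104 CPM after Dps and 12.5 to 19.8 CPM in controls. Ifit3, an antiviral effector, measured 79.7 and 57.6 CPM against 39.0, 47.3 and 38.9 CPM, and Igtp, a relative of Irgm1, 71.1 and 53.2 CPM against 28.7, 46.4 and 28.6 CPM. Groups did not overlap for these 3 genes, and their adjusted p values were 0.15, 0.0946 and 0.18. They were chosen after their values were seen. Against controls, which both comparisons share, 28 list members were called higher and none lower after MnDps at 24 h, where 4.93% and 8.39% of all genes were. After Dps 14 were called higher and 2 lower, where 9.64% and 10.4% of all genes were. The list medians were 0.82 and 0.26.

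Outside the list, Zc3hav1, an antiviral protein that binds viral RNA, measured 9.27 and 9.95 CPM after MnDps and 5.71, 7.003 and 6.26 CPM after Dps. Controls measured 8.14 to 8.84 CPM, so here the Dps libraries were the ones below the controls. The log2 fold change was 0.61 ± 0.12 (SE), adjusted p 0.0366. Lgals3bp, a secreted glycoprotein that binds galectins, measured 263 and 232 CPM after MnDps, 163, 188 and 145 CPM after Dps and 56.2 to 67.2 CPM in controls. Lgals3bp was called above control after both proteins, with log2 fold changes of 2.02 and 1.44, and MnDps exceeded Dps by a log2 fold change of 0.58 ± 0.12 (SE), adjusted p 0.0368.

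**Figure D2:**
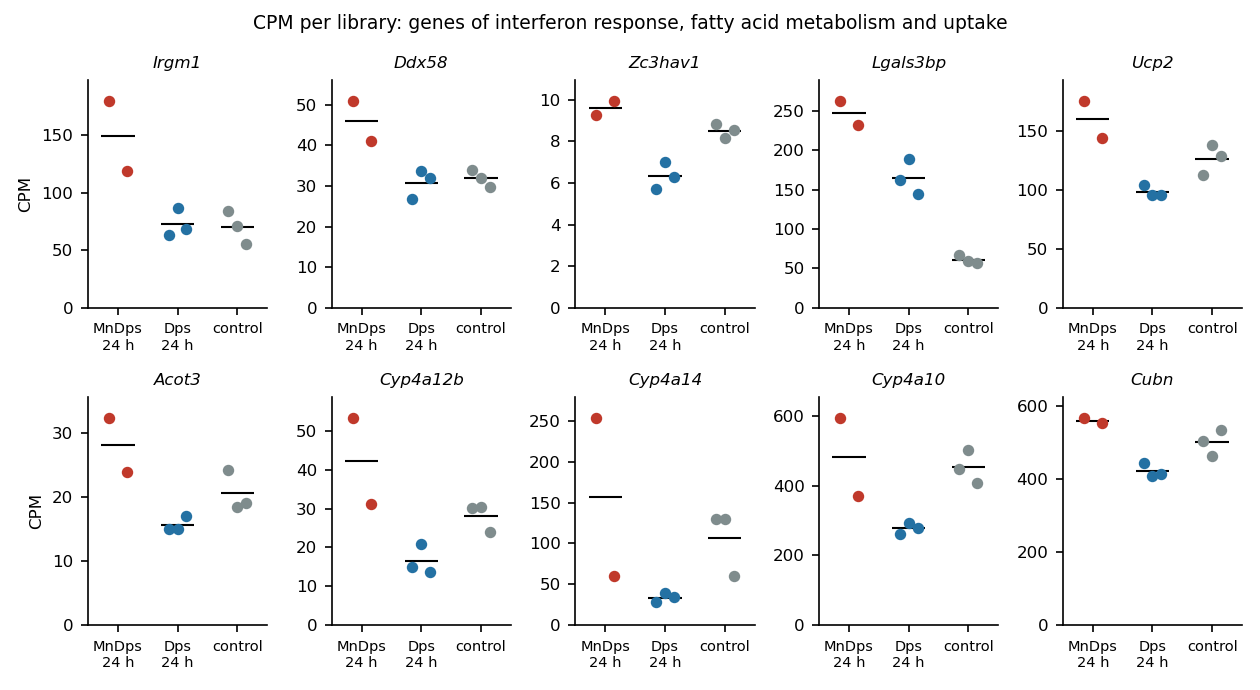
CPM of 10 genes in each library of MnDps at 24 h (red, 2), Dps at 24 h (blue, 3) and control (grey, 3), with a bar at each group's mean and axes from 0. For Irgm1 and Ddx58 both MnDps libraries lie above all controls and the Dps libraries overlap them, while MnDps replicate 1 is the highest library for Cyp4a14 (253.7 CPM).

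Of 40 tested genes of fatty acid oxidation and omega-hydroxylation, 2 were called higher and none lower, and the list's median log2 fold change was 0.10. That median was 0.02 without MnDps replicate 1 and 0.19 without MnDps replicate 2. Acot3, a peroxisomal acyl-CoA thioesterase, measured 32.3 and 23.9 CPM after MnDps and 14.9, 14.99 and 17.0 CPM after Dps, with controls at 18.4 to 24.2 CPM. The groups did not overlap, and the log2 fold change was 0.84 ± 0.15 (SE), adjusted p 0.0232. Cyp4a12b, a fatty acid omega-hydroxylase, measured 53.3 and 31.1 CPM after MnDps, 14.9, 20.9 and 13.6 CPM after Dps and 24.0 to 30.3 CPM in controls. Cyp4a12b had a log2 fold change of 1.35 ± 0.24 (SE), adjusted p 0.0293, the largest among the called higher genes. Its near-identical copy Cyp4a12a measured 60.2 and 58.6 CPM against 53.8, 70.4 and 26.5 CPM, with an adjusted p of 0.815, and how the counting shared reads between the copies is not given, so the value for Cyp4a12b is uncertain.

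Ucp2, a mitochondrial inner-membrane carrier, was also higher: 175 and 144 CPM against 104, 95.7 and 95.3 CPM, with controls between at 112 to 138 CPM. For Ucp2 the log2 fold change was 0.70 ± 0.14 (SE), adjusted p 0.0301, and with a trend in transcript length and GC content removed it was 0.62, adjusted p 0.0627, and not called. Cyp4a14, an omega-hydroxylase and a classic PPAR-alpha target, was not called, with 253.7 and 60.5 CPM against 27.6, 38.7 and 34.3 CPM, and 59.6 to 130.4 CPM in controls. Each MnDps library lay above every Dps library, and MnDps replicate 1 lay far above replicate 2. The log2 fold change of Cyp4a14 was 2.22 ± 0.67 (SE), with an adjusted p of 0.155. Cyp4a10, of the same family, measured 595 and 372 CPM against 260.6, 293 and 279.6 CPM (adjusted p 0.0624). The mitochondrial enzymes Cpt1a, at 484 and 516 CPM against 406, 405 and 393 CPM, and Acadm, at 1107 and 1146 CPM against 1232, 1055 and 1021 CPM, were not called (adjusted p 0.15 and 0.914).

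Among genes of protein uptake, cubilin alone was called. Cubn, which encodes the receptor for vitamin B12 complexes and many filtered proteins, measured 567 and 553 CPM after MnDps and 443, 409 and 414 CPM after Dps. Controls measured 504, 462 and 535 CPM, so the Dps libraries lay below the controls and the MnDps libraries above them. The log2 fold change was 0.41 ± 0.09 (SE), adjusted p 0.0491. With the length and GC trend removed it was 0.26, adjusted p 0.114, and the call was lost. Lrp2, megalin, measured 2138 and 2237 CPM against 1980, 2120 and 2121 CPM, a log2 fold change of 0.08 ± 0.09 (SE) with an adjusted p of 0.708. Of the 24 tested genes of this uptake pathway, 1 was called higher and none lower. Clcn5, the endosomal chloride exchanger, measured 19.9 and 20.1 CPM against 13.1, 13.6 and 15.6 CPM (adjusted p 0.119). Slc12a3, the thiazide-sensitive sodium-chloride cotransporter of the distal convoluted tubule, was called higher, with 1195 and 1083 CPM against 816, 905 and 879 CPM. Its log2 fold change was 0.39 ± 0.08 (SE), adjusted p 0.0407, and it was 0.31 (adjusted p 0.0751) with the length and GC trend removed.

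The other called higher genes had varied roles. Lamc1, a laminin chain of basement membranes, measured 47.8 and 46.8 CPM against 34.9, 33.0 and 34.0 CPM, a log2 fold change of 0.48 ± 0.09 (SE), adjusted p 0.0294. Controls measured 37.7 to 45.7 CPM, so all Dps libraries lay below them and both MnDps libraries above. Fanca, of the Fanconi anaemia DNA repair complex, measured 9.96 and 11.8 CPM against 7.26, 5.68 and 6.83 CPM, a log2 fold change of 0.73 ± 0.14 (SE), adjusted p 0.0265. Tbl1x, a subunit of nuclear receptor corepressor complexes, measured 15.1 and 14.9 CPM against 9.23, 8.96 and 9.37 CPM, with controls at 16.7 to 24.1 CPM. All 5 libraries lay below the controls, with log2 fold changes against control of -0.43 for MnDps (adjusted p 0.0604, not called) and -1.14 for Dps. Fryl, a large scaffold protein, and Nav1, a neuron navigator protein, were higher after MnDps too: Fryl measured 42.1 and 40.5 CPM against 25.9, 26.7 and 31.2 CPM, and Nav1 17.1 and 17.8 CPM against 10.4, 10.7 and 9.99 CPM. Itpr3, an inositol trisphosphate receptor of the endoplasmic reticulum, measured 13.2 and 13.1 CPM against 8.43, 8.67 and 8.36 CPM. Kcnip2, a potassium channel subunit, passed 2-fold at a low level, with 4.602 and 3.73 CPM against 1.87, 1.42 and 2.58 CPM. Cry2, a repressor of the circadian clock, measured 40.9 and 43.0 CPM against 32.1, 33.5 and 31.6 CPM, with controls at 26.1 to 27.3 CPM. It was the only called gene of 20 clock genes, by a log2 fold change of 0.37 ± 0.08 (SE), adjusted p 0.0407. Lamc1, Nav1, Itpr3, Kcnip2 and Cry2 were not called with the length and GC trend removed, with adjusted p of 0.0634, 0.111, 0.103, 0.0634 and 0.0637. The remaining called higher genes were Susd1, B4galnt1, Rgs11, Kit and Arhgef28, with log2 fold changes of 0.68, 0.58, 0.57, 0.56 and 0.43, of which Kit was not called with the trend removed (adjusted p 0.0504). For Arhgef28 the Dps libraries lay below all controls and the MnDps libraries overlapped the controls.

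The 4 largest decreases among called genes were at loci annotated as noncoding or as a pseudogene. Gt(ROSA)26Sor, a noncoding transcript at chr6:113067428-113077333 on the minus strand, measured 5.04 and 4.05 CPM after MnDps and 15.9, 18.3 and 20.3 CPM after Dps. Controls measured 11.01 to 13.0 CPM, so MnDps lay below and Dps above them. The log2 fold change was -2.01 ± 0.22 (SE), adjusted p 0.00135, and it stayed between -2.17 and -1.85 with any 1 library left out. The locus overlaps Thumpd3 on the other strand, and the strand setting of the counting is not given, so reads of the neighbours may be shared. Thumpd3 measured 31.2 and 28.7 CPM against 29.3, 30.9 and 30.3 CPM (adjusted p 0.963).

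Mir703 fell furthest, with 0.567 and 0.369 CPM after MnDps against 4.80, 5.29 and 4.73 CPM after Dps and 2.26 to 3.33 CPM in controls. Mir703 had a log2 fold change of -3.44 ± 0.47 (SE), adjusted p 0.00437, and lost its call when either MnDps library was left out. The hairpin lies at chr5:98475556-98475664 on the minus strand of GRCm38.p6, opposite to the gene Cfap299, and is shown because reads on it, from a library of messenger RNA, need not come from the mature miRNA. RefSeq gives the mature miRNA, with its seed (bases 2 to 8) in capitals, and the hairpin, with the mature part in capitals.
mmu-miR-703: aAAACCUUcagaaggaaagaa
Mir703 hairpin: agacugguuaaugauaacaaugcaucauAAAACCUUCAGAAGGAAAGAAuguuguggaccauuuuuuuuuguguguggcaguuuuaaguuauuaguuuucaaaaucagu
The hairpin is 109 bases long with a GC content of 31.2%. Mir6236, a short miRNA locus on chromosome 9, measured 4.98 and 3.73 CPM against 11.3, 11.9 and 14.1 CPM, a log2 fold change of -1.53 ± 0.27 (SE), adjusted p 0.0206, and was not called with the length and GC trend removed (adjusted p 0.0624). Zxda, annotated as an unprocessed pseudogene on the X chromosome, measured 2.02 and 1.97 CPM against 4.11, 4.70 and 4.97 CPM, a log2 fold change of -1.21 ± 0.21 (SE), adjusted p 0.0182. It overlaps Gm26617 on the other strand, and pseudogene reads may be shared with related genes.

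The lower protein-coding genes with the smallest p values were C1d, Acyp2, Sar1b and Ptma. C1d, a cofactor of the RNA exosome, measured 48.7 and 47.2 CPM after MnDps and 83.5, 80.2 and 80.0 CPM after Dps, with controls at 72.8 to 79.1 CPM. The Dps libraries were close to the controls and the MnDps libraries far below both, by a log2 fold change of -0.76 ± 0.09 (SE) from Dps, adjusted p 0.00135. Acyp2, a small acylphosphatase, measured 17.1 and 18.1 CPM against 31.0, 30.5 and 28.4 CPM, a log2 fold change of -0.77 ± 0.09 (SE), adjusted p 0.00188. Sar1b, the guanosine triphosphatase that starts coat assembly on vesicles leaving the endoplasmic reticulum, measured 85.7 and 83.6 CPM against 130.4, 136 and 128 CPM. Its log2 fold change was -0.64 ± 0.08 (SE), adjusted p 0.00325. Acyp2 and Sar1b lost their call in 1 of the 5 fits, the one without MnDps replicate 1. Ptma, the nuclear protein prothymosin alpha, measured 250.3 and 245 CPM against 369, 373 and 350.1 CPM, a log2 fold change of -0.55 ± 0.08 (SE), adjusted p 0.00437, and lost its call when either MnDps library was left out.

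**Figure D3:**
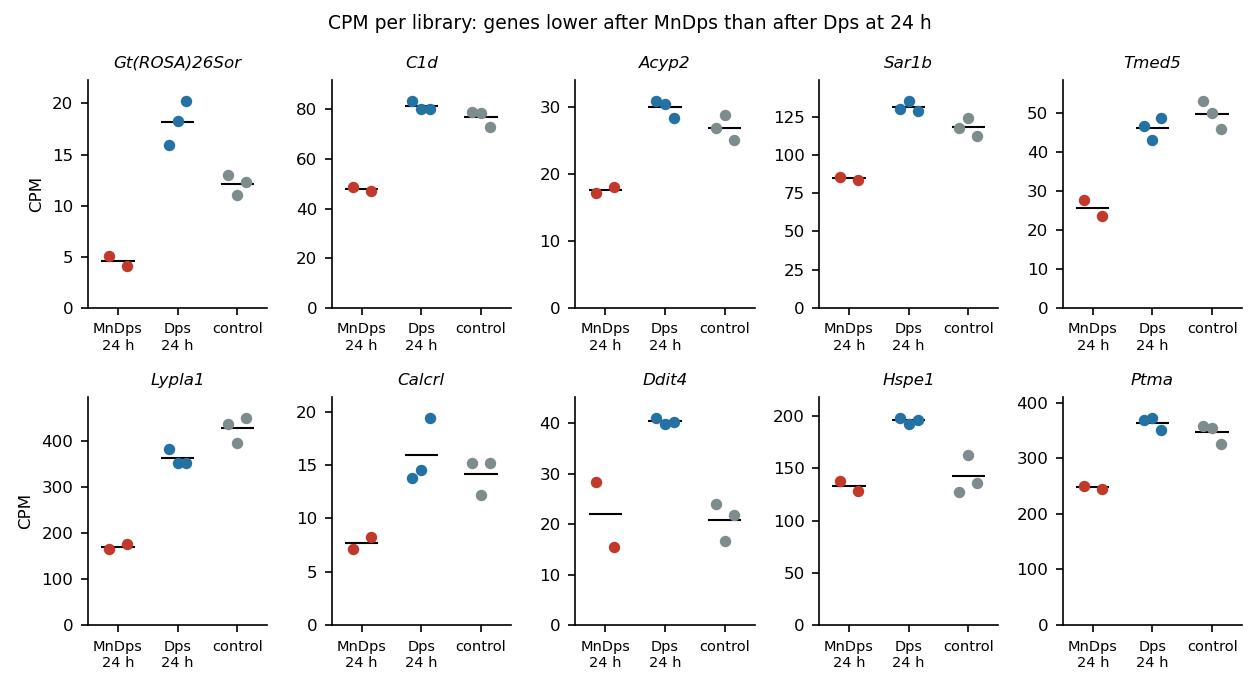
CPM of 10 called lower genes in each library of MnDps at 24 h (red, 2), Dps at 24 h (blue, 3) and control (grey, 3), with a bar at each group's mean and axes from 0. MnDps lies below both other groups for C1d, Lypla1 and Calcrl, while for Ddit4 and Hspe1 all Dps libraries lie above the controls.

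Lypla1, an enzyme that removes palmitate from proteins, measured 164 and 177 CPM after MnDps against 381, 353 and 352 CPM after Dps and 396 to 449.7 CPM in controls. For Lypla1 the log2 fold change was -1.09 ± 0.18 (SE), adjusted p 0.0232. Calcrl, the receptor for adrenomedullin and CGRP, found on vessels, measured 7.12 and 8.23 CPM against 13.8, 14.5 and 19.4 CPM, a log2 fold change of -1.04 ± 0.16 (SE), adjusted p 0.0117. Lipo1, a lipase family member, measured 22.3 and 27.1 CPM against 59.2, 51.5 and 46.2 CPM. At 4 h the log2 difference between MnDps and Dps was -1.01 for Lypla1, -1.07 for Lipo1 and -1.23 for Calcrl. The change in that difference from 4 h to 24 h was not called for them (adjusted p 0.84, 0.983 and 0.564 in the quasi-likelihood test). Trim63, the ubiquitin ligase MuRF1, measured 15.7 and 15.8 CPM against 29.1, 33.4 and 26.6 CPM, and Igip 13.9 and 14.5 CPM against 26.6, 26.3 and 27.6 CPM. Lars2, the mitochondrial leucyl-tRNA synthetase, measured 106.7 and 97.1 CPM against 180.1, 179.8 and 189.9 CPM, a log2 fold change of -0.85 ± 0.15 (SE), adjusted p 0.0232. Zbtb6, Tmem263 and Ap3s1, a subunit of the AP-3 vesicle coat, had log2 fold changes of -0.90, -0.90 and -0.79. Lipo1 and Ap3s1 were not called with the length and GC trend removed (adjusted p 0.0888 and 0.105).

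Several called lower genes act in the early secretory pathway, and they were singled out after their values were seen, without a count over that pathway. Tmed5, a cargo receptor between the endoplasmic reticulum and Golgi, measured 27.6 and 23.5 CPM after MnDps against 46.5, 42.9 and 48.7 CPM after Dps. Its log2 fold change was -0.85 ± 0.13 (SE), adjusted p 0.011. Tmed7 of the same family measured 83.2 and 73.4 CPM against 124, 125 and 134 CPM (adjusted p 0.0395). Sec24a, a subunit of the vesicle coat that Sar1b recruits, measured 22.4 and 25.6 CPM against 32.6, 35.3 and 36.2 CPM, with controls higher still at 43.1 to 50.5 CPM (adjusted p 0.0471). Sec62, of the protein channel into the endoplasmic reticulum, measured 276 and 248 CPM against 332, 364 and 367 CPM (adjusted p 0.0277). Srp19, of the signal recognition particle, measured 24.7 and 21.7 CPM against 33.9, 35.4 and 32.6 CPM (adjusted p 0.0276).

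Of 40 tested proximal tubule genes 1 was called higher, Cubn, and 1 lower, Slc7a13, with 15 positive and 25 negative log2 fold changes and a median of -0.06, or -0.12 without Dps replicate 3 and -0.0036 without MnDps replicate 1. Slc7a13, an amino acid transporter of the proximal straight tubule, measured 679.6 and 727 CPM against 1095, 984 and 987 CPM, a log2 fold change of -0.54 ± 0.11 (SE), adjusted p 0.0301. Tmem27, or collectrin, which carries amino acid transporters to the brush border, measured 1255 and 1121 CPM against 1738, 1822 and 1833 CPM (adjusted p 0.0117). Chpt1, the cholinephosphotransferase of phosphatidylcholine synthesis, measured 1233 and 1297 CPM against 2114, 2061 and 2074 CPM (adjusted p 0.0232). Of 14 tested genes listed for the thin limb and thick ascending limb, with a median of -0.16, 1 was called lower, Sult1d1. Sult1d1, a sulfotransferase that was not on the proximal tubule list, measured 491 and 418 CPM against 687, 756 and 822 CPM. Its log2 fold change was -0.73 ± 0.14 (SE), adjusted p 0.0265. With the length and GC trend removed Slc7a13 and Sult1d1 lost their calls, at -0.38 (adjusted p 0.145) and -0.24 (adjusted p 0.284), while Tmem27 and Chpt1 kept theirs. Tmem27 and Chpt1 were chosen after their values were seen.

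The lower calls were concentrated in transcripts of low GC content. Their median GC content was 42.0%, beside 49.8% over all genes tested and 51.9% among the higher calls, and 71 of the 99 came from the lowest of 5 equal bins of genes by GC content, 29.6% to 44.0%. In that bin the median log2 fold change was -0.11 and 2.4% of genes were called lower, and in the bin of highest GC content the median was 0.05 and 0.102% were called lower. Across 14767 genes, which are not independent replicates, Spearman's rho of the log2 fold change was 0.21 with GC content and 0.21 with transcript length. A fit with both trends removed called 135 genes, 20 higher and 115 lower, of which 72 were among the 121, and all 121 kept their direction in it. What gives the trend was not tested.

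**Figure D4:**
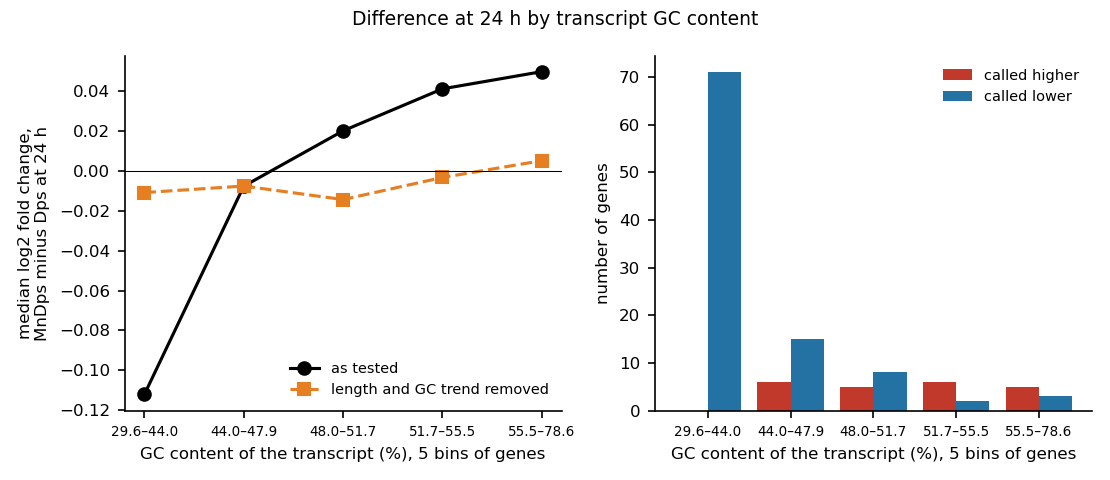
Left, median log2 fold change of MnDps minus Dps at 24 h in 5 equal bins of genes by transcript GC content, as tested (black) and with the length and GC trend removed (orange); right, called higher (red) and lower (blue) genes per bin. The bin of lowest GC content has a median of -0.11 as tested and holds 71 of the 99 lower calls.

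All 40 tested genes of the respiratory chain and ATP synthase had negative log2 fold changes, with a median of -0.22, and none of them was called. Both MnDps libraries lay below all Dps libraries for 37 of the 40 (92.5%), where 19.5% of all genes tested did so. Ndufa4, of cytochrome oxidase, measured 507 and 477 CPM after MnDps against 664, 653 and 609 CPM after Dps (adjusted p 0.0664), and Cox7b, of the same complex, 299 and 269.7 CPM against 387, 367 and 369 CPM (adjusted p 0.100). With the length and GC trend removed the list median was -0.13. For the cytosolic ribosomal proteins 39 of 40 had negative values with a median of -0.14, which was -0.06 with the trend removed, and for the proteasome 23 of 27 with a median of -0.12, which was -0.03. Neither list had a called member. Without MnDps replicate 1 or 2 the ribosomal median was -0.22 or -0.09. Against controls, which both comparisons share, the respiratory chain median was 0.05 after MnDps and 0.28 after Dps. There 1 member was called higher and 2 lower after MnDps, where 4.93% and 8.39% of all genes were. After Dps 21 were called higher and 0 lower, where 9.64% and 10.4% were. The ribosomal medians against control were 0.33 and 0.47, and those of the proteasome 0.16 and 0.29.

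Outside these lists, the called mitochondrial genes included Ndufb6, a complex I subunit, with 111 and 109 CPM against 176, 156 and 142 CPM (adjusted p 0.0277). Atp5g3, the c subunit of ATP synthase, measured 785 and 739.6 CPM against 1013, 1007 and 949 CPM (adjusted p 0.0407), and its call was lost with the trend removed (adjusted p 0.104). Controls of Atp5g3 measured 707 to 796 CPM, so the MnDps libraries overlapped them and all Dps libraries lay above. Ndufb6 and Atp5g3 were picked after their values were seen.

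**Figure D5:**
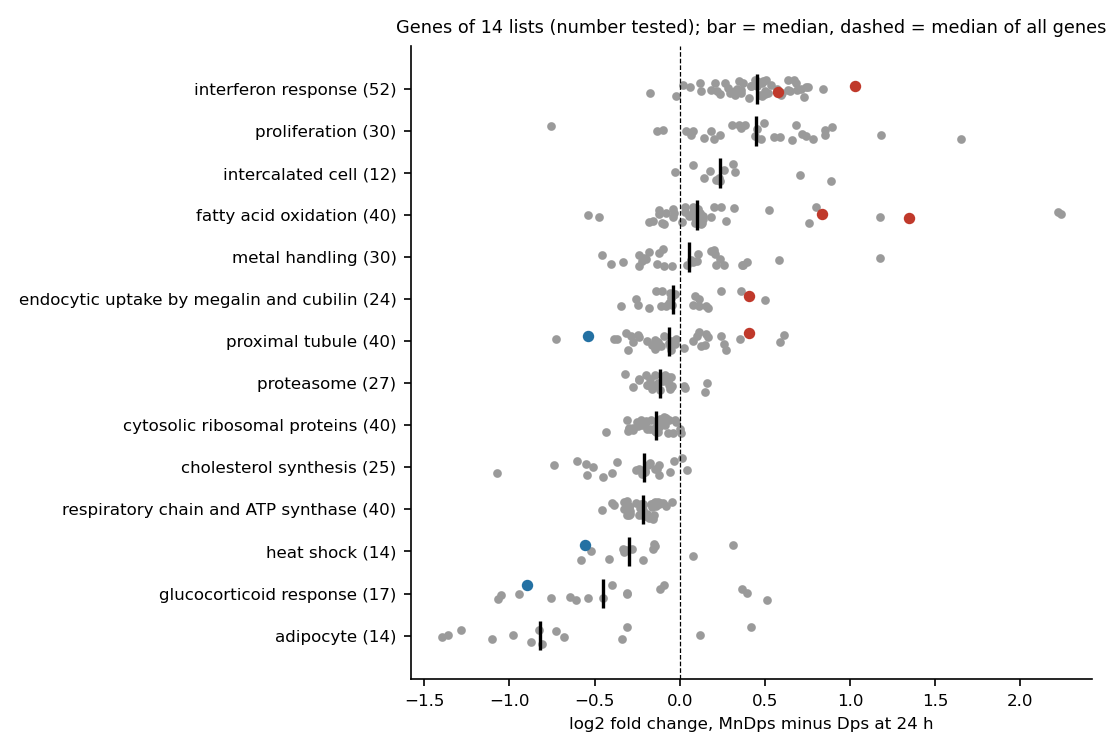
Log2 fold change of MnDps minus Dps at 24 h (horizontal axis) for each tested gene of 14 lists, with the number tested in brackets, red and blue for called higher and lower genes, and a bar at each list's median. The interferon list has a median of 0.45, the respiratory chain list -0.22 and the glucocorticoid list -0.45, beside a dashed line at the median of all genes.

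Genes that respond to glucocorticoids had 1 member called lower after MnDps. Of 17 tested members, 14 had negative log2 fold changes, with a median of -0.45 (-0.66 to -0.34 as libraries were left out), and 8 (47.1%) had both MnDps libraries below all Dps libraries, where 19.5% of all genes did. Against controls the list medians were -0.27 after MnDps and 0.25 after Dps. Ddit4, an inhibitor of mTORC1 that stress and glucocorticoids induce, was the called member. It measured 28.4 and 15.5 CPM after MnDps, 41.1, 39.8 and 40.3 CPM after Dps and 16.6 to 24.0 CPM in controls, a log2 fold change of -0.90 ± 0.19 (SE), adjusted p 0.0469. MnDps replicate 1 lay above the controls, replicate 2 below them, and the Dps libraries well above both. The call of Ddit4 was kept only in the fit without MnDps replicate 1, and its log2 fold change was -0.51 without MnDps replicate 2. With the length and GC trend removed it was -0.89, adjusted p 0.0902, and the list had no called member. Sgk1, a kinase that controls sodium channels, measured 205 and 97.8 CPM against 152, 356 and 429 CPM and its groups overlapped (adjusted p 0.279). Fkbp5, a chaperone of the glucocorticoid receptor, measured 128 and 79.7 CPM against 131, 182 and 172 CPM (adjusted p 0.263). The receptor itself, Nr3c1, measured 64.9 and 69.3 CPM against 72.5, 70.5 and 71.8 CPM (adjusted p 0.742).

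Of 25 tested genes of cholesterol synthesis none was called, and 23 had negative log2 fold changes, with a median of -0.21, which was also -0.21 with the length and GC trend removed, and 11 (44%) had both MnDps libraries below all Dps libraries, where 19.5% of all genes did. Against controls the list median was 0.02 after MnDps, with 0 called higher and 3 lower, where 4.93% and 8.39% of all genes were. After Dps it was 0.25, with 9 and 1, where 9.64% and 10.4% were. Msmo1, a sterol demethylating enzyme, measured 29.6 and 26.2 CPM after MnDps against 46.6, 49.95 and 43.0 CPM after Dps (adjusted p 0.0602). Sqle, squalene epoxidase, measured 65.9 and 71.9 CPM against 93.5, 93.6 and 95.1 CPM (adjusted p 0.0602), and it was called with the trend removed, at -0.50 and adjusted p 0.0388. Hmgcs1, the cytosolic HMG-CoA synthase, measured 556 and 482 CPM against 788, 797 and 683 CPM (adjusted p 0.0685). Heat shock genes had a median of -0.30 over 14 members, which was -0.05 without Dps replicate 3. Their medians against control were -0.05 after MnDps and 0.32 after Dps. Hspe1, the mitochondrial co-chaperonin, was called lower, with 138 and 129 CPM against 198, 193 and 197 CPM and controls at 128 to 163 CPM, a log2 fold change of -0.56 ± 0.11 (SE), adjusted p 0.0301. Its call was lost with the trend removed, at -0.40 (adjusted p 0.0638).

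Genes of metal handling showed no call between the proteins. Of 30 tested members none was called, 16 had positive and 14 negative log2 fold changes, and the median was 0.06, or -0.01 without MnDps replicate 1. Slc30a1, the zinc exporter of the plasma membrane, had the lowest value of the list, with 60.7 and 74.2 CPM after MnDps against 92.6, 89.9 and 95.3 CPM after Dps and 89.9 to 102 CPM in controls. Its log2 fold change was -0.45 ± 0.11 (SE) with an adjusted p of 0.058, and with the length and GC trend removed it was -0.50, adjusted p 0.022, and called. The metallothioneins, which bind zinc and copper, overlapped between the groups: Mt1 measured 135 and 84.9 CPM against 74.1, 92.9 and 88.2 CPM (adjusted p 0.552), and Mt2 51.3 and 35.3 CPM against 29.0, 37.0 and 32.2 CPM (adjusted p 0.658). The manganese importers Slc39a14 and Slc39a8 measured 71.7 and 53.2 CPM against 55.9, 54.8 and 51.1 CPM (adjusted p 0.573), and 56.4 and 60.4 CPM against 67.1, 63.2 and 76.4 CPM (adjusted p 0.337). Slc11a2, the divalent metal transporter DMT1, had a log2 fold change of 0.07 ± 0.11 (SE, adjusted p 0.805). The manganese exporter Slc30a10 was not tested, with 1 count over the 5 libraries.

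Antioxidant and injury genes were not called. Sod2, the manganese superoxide dismutase of mitochondria, measured 347 and 337 CPM after MnDps against 382, 381 and 378 CPM after Dps and 319.6 to 361 CPM in controls. The groups did not overlap, and the log2 fold change was -0.15 ± 0.08 (SE) with an adjusted p of 0.32. Of 20 antioxidant enzymes 18 had negative values, with a median of -0.13. Hmox1, heme oxygenase 1, measured 44.7 and 39.6 CPM against 27.2, 43.1 and 46.3 CPM (adjusted p 0.873). Havcr1, or KIM-1, a marker of proximal tubule injury, measured 5.74 and 1.64 CPM against 2.46, 2.79 and 2.10 CPM (adjusted p 0.536), and Lcn2, or NGAL, 9.71 and 5.32 CPM against 4.70, 2.99 and 7.65 CPM (adjusted p 0.752). Of 28 tubule injury genes and 36 genes of NF-kB and acute inflammation none was called, with medians of 0.13 and 0.16, or -0.01 and 0.05 without MnDps replicate 1. Cell cycle genes had a median of 0.45 over 30 members, 27 of them positive and none called, and the median ranged from 0.16 without MnDps replicate 1 to 0.69 without MnDps replicate 2. Both MnDps libraries lay above all Dps libraries for 14 of the 30 (46.7%), where 18.6% of all genes tested did so. Mki67 and Top2a, both of dividing cells, measured 8.95 and 3.97 CPM against 4.64, 3.58 and 3.82 CPM and 8.20 and 4.38 CPM against 4.06, 3.48 and 3.78 CPM (adjusted p 0.267 and 0.193). In both of these genes MnDps replicate 1 gave most of the difference.

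Markers of other cells differed between libraries of a group. The 13 adipocyte genes other than Pck1, which tubule cells also express, summed to 275 and 145 CPM after MnDps, 435, 295 and 220.4 CPM after Dps and 127 to 265 CPM in controls. Ucp1, the defining gene of brown fat, measured 17.4 and 0.86 CPM after MnDps, 32.4, 22.3 and 12.6 CPM after Dps, and 0 to 8.66 CPM in controls. Of the 14 adipocyte genes none was called, and the median of -0.82 ranged from -1.63 without MnDps replicate 1 to -0.15 without MnDps replicate 2. Intercalated cell genes summed to 1135 and 1015 CPM against 893, 914 and 885 CPM, and 11 of 12 had positive log2 fold changes with none called. Both MnDps libraries lay above all Dps libraries for 7 of the 12 (58.3%), where 18.6% of all genes tested did so. The median of this list was 0.23 and stayed between 0.18 and 0.28 with any 1 library left out. Within the list MnDps replicate 1 was the highest library for Aqp6, at 129.9 and 57.5 CPM against 50.5, 49.1 and 51.4 CPM, and for Slc4a1, at 86.9 and 43.9 CPM against 44.6, 37.0 and 37.8 CPM. Slc4a1 was also on the red blood cell list. The 2 tested genes of that list summed to 110.5 and 53.7 CPM against 54.0, 46.4 and 52.5 CPM, with none called. Macrophage genes summed to 304 and 297 CPM against 283, 305 and 329 CPM, with none of 20 called. The part of these cells in the gene differences was not tested. Over all 49 lists, 40 had no called member.

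The difference between MnDps and Dps at 24 h was set against the same difference at 4 h by an interaction term. It was called for 4368 genes (29.4%), 2034 of them with a larger value at 24 h (13.7%) and 2334 with a smaller one (15.7%). With the length and GC trend removed the counts were 790 (5.32%) and 1379 (9.28%). Respiratory chain genes had a median log2 difference between MnDps and Dps of 0.57 at 4 h and of -0.22 at 24 h, and the interaction was called as smaller for 37 of 40, or for 21 of 40 with the trend removed. The medians of the cytosolic ribosomal proteins were 0.78 and -0.14, with 38 of 40 called as smaller, or 27 of 40. At 4 h 41.5% of all genes were called between the proteins, and among the interferon genes 4 of 52 were higher and 8 lower (20.8% and 20.7% of all genes). Interferon genes had medians of 0.03 at 4 h and 0.45 at 24 h, and 15 of 52 were called as larger at 24 h and none as smaller, or 7 of 52 and none with the trend removed.

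The interaction calls with the smallest p were Lamc1, Wfdc15b, Tbl1x, Ndufa1, Sbf2 and Sik2. Each had opposite signs at the 2 times: Sik2, a salt-inducible kinase, went from a log2 difference of -1.29 at 4 h to 0.44 at 24 h, Lamc1 from -0.74 to 0.48, and Wfdc15b, a secreted protease inhibitor family member, from 0.99 to -0.50. Ndufa1, of complex I, went from 0.81 to -0.33, Sbf2 from -0.78 to 0.40 and Tbl1x from -1.18 to 0.71. The 24 h value was itself called for Lamc1 and Tbl1x and not for the other 4.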

How the data were processed

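RNA of snap-frozen mouse kidney was sequenced from stranded mRNA paired-end libraries, per the labels' protocols. The authors deposited raw counts per gene symbol, whole numbers with no normalization, and STAR, featureCounts and the build mm10 are named in the submitters' processing notes; versions, strand setting and the handling of reads with several matches are not given in the labels or files used here. All 14 columns matched a sample (0 unmatched). From these counts genes were filtered with filterByExpr, scaled by TMM and tested with edgeR 4.0.16 (R 4.3.3) by the quasi-likelihood test with Benjamini-Hochberg adjustment over 14854 genes; 1 fit over 5 groups gave the spread (9 residual degrees of freedom, biological coefficient of variation 10.7%). Called genes are those whose adjusted p was below 0.05. SE is the absolute log2 fold change divided by the square root of the test's F, with the spread estimated over all 14 libraries. Transcript length and GC content came from GENCODE on GRCm38, and 99.4% of tested genes had both.

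Genes named were the 15 called genes with the largest change in each direction (at least 1 CPM, groups not overlapping), the 6 with the smallest p in each direction and in the interaction, called list members and 12 fixed genes; other examples were chosen after their values were seen. The members and lists were chosen with earlier results of these data known. The script was tested on simulated data. Some genes are not reported here. Alternatives used DESeq2 1.42.0 size factors or test, limma 3.58.1 voom weights, other filters, a 1.5-fold minimum, other sets of libraries, a depth term, a length and GC correction, and each library left out. Total counts ran from 15097093 to 42074942 per library.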

Additional observations from a re-analysis of the deposited data

Results flagged for a closer look

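The named genes below were picked out because their difference between MnDps and Dps was not the same at 24 h as at 4 h by the interaction term of edgeR's quasi-likelihood test, at an adjusted p under 0.05. This held for 36 of the 56 named genes. Of these 4 were named for the interaction alone and most others for a large difference at 24 h, which enters the interaction, so the share is not comparable with the 29.4% among all genes tested. Values are the log2 difference at 24 h minus that at 4 h.

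Larger at 24 h were the interferon-inducible Irgm1 by 1.01, the RNA sensor Ddx58 by 0.79, the antiviral Zc3hav1 by 1.11 and Lgals3bp by 0.61. The fatty acid genes Cyp4a12b and Acot3 were larger by 1.12 and 0.72. The uptake receptors Cubn and Lrp2 were larger by 0.81 and 0.34, and the cotransporter Slc12a3 by 0.58. With the length and GC trend removed neither receptor was called larger. The value was then 0.15 for Cubn (adjusted p 0.361) and -0.36 for Lrp2 (adjusted p 0.0158). Among the remaining genes the value was 1.89 for Tbl1x, 1.73 for Sik2, 1.18 for Sbf2, 1.32 for Nav1, 1.22 for Lamc1, 1.11 for Fanca, 1.11 for Itpr3 and 1.03 for Fryl. It was 0.81 for Susd1, 0.61 for Rgs11 and 0.52 for the clock gene Cry2.

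Smaller at 24 h were the loci Mir703 by a value of -2.56, Mir6236 by -1.69 and Gt(ROSA)26Sor by -1.31. Wfdc15b stood at -1.49 and Ndufa1 at -1.14. The co-chaperonin Hspe1 stood at -1.28, Trim63 at -1.18 and Ddit4 at -1.03. Acyp2, C1d and Lars2 stood at -0.82, -0.76 and -0.72, Sar1b at -0.60 and Igip at -0.54. The transporter Slc7a13 stood at -0.45, Sod2 at -0.41 and Ptma at -0.39.

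In 26 of the 36 genes the sign at 4 h was opposite to that at 24 h. With the length and GC trend removed 26 still had an adjusted p under 0.05. Lrp2 was among them but was called in the opposite direction, at -0.36. The 10 that lost the call were Cubn, Nav1, Itpr3, Gt(ROSA)26Sor, Igip, Ddit4, Acyp2, Sar1b, Slc7a13 and Ptma. Of these Ptma changed sign, to 0.14. The gap test for a single extreme library needs at least 4 libraries in a group and was not run.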

How the results depend on the processing

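All 121 called genes kept their direction under each alternative that gave them a value, and their number depended on the fit. Fitting only the 2 groups called 727 genes (231 higher, 496 lower), the 24 h groups with controls 302 (67 and 235), DESeq2 558 (165 and 393) and limma voom with library weights 716 (204 and 512). A term for libraries of over 30000000 counts gave 68 (10 and 58), and a test against a 1.5-fold minimum gave 2 (0 and 2). With 1 library left out the total ran from 5 to 45, the higher genes from 0 to 13 and the lower genes from 5 to 43. The lower genes were 81.8% of calls, but 40.9% without MnDps replicate 2, 100% without MnDps replicate 1 or with the 1.5-fold minimum, 95.6% and 93.8% without Dps replicates 1 and 2, and 68.2%, 70.4% and 71.5% for the 2 groups alone, DESeq2 and voom. The interaction called 4368 genes, 2169 with the length and GC correction, 189 with the 1.5-fold minimum and 2724 to 4145 with 1 library left out. Other scaling or filters kept each count within 1.5 times. Leaving out an MnDps library leaves 1, assumed to vary like the other groups. At an unadjusted p under 0.05, 2418 genes differed. No paired analysis was possible because the labels give no replicate numbers.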
